A study of Mus musculus with 18 samples.

Results

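Islet libraries were ranked by the transcripts of 3 fat cell genes, Fabp4, Car3 and Adipoq, and the 6 highest of 18 libraries were set against the 6 lowest. For each library the log2 values of the 3 genes were averaged, and that mean is called the adipocyte score. The remaining 6 libraries lie between the sets. The sets were drawn from the measured values and from no treatment, so each difference is an association between libraries.

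The study profiled pancreatic islets of Mus musculus, 1 library per mouse, with a kit that reads the 3' ends of transcripts. The labels give 10 mice of genotype NRK1_BKO, in which NRK1 was removed with Ins1Cre (called KO here), and 8 mice of genotype NRK1_WT (called WT). All 18 mice, WT included, were kept on a high-fat diet (HFD) for 12 weeks, so no library comes from mice on another diet. Ins1Cre is driven from the insulin 1 gene and acts in beta cells, so the other cell types of the islet keep NRK1. The sources used here do not give strain, sex, age or littermates, nor the deleted part of Nmrk1, so 3' reads of that gene do not check the genotype.

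White fat cells store triglyceride and are marked by a fatty acid binding protein (Fabp4), a carbonic anhydrase abundant in fat and muscle (Car3) and the hormone adiponectin (Adipoq). The transcription factors PPARG and C/EBP alpha (Cebpa) drive their differentiation and many of their genes. Islets hold mainly endocrine cells with capillaries, macrophages and stroma, while fat cells sit in the exocrine pancreas and the surrounding fat. Fabp4 is also made by capillary endothelium and macrophages. In a bulk library, fewer cells of a type and less RNA per cell cannot be told apart.

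The adipocyte score ran from 2.14 in WT 8 to 4.61 in KO 6. The high set held KO 6 (4.61), KO 1 (4.16), KO 8 (3.92), KO 9 (3.87), KO 2 (3.58) and WT 1 (3.22). The low set held WT 7 (2.66), KO 5 (2.65), KO 7 (2.60), WT 6 (2.53), WT 5 (2.43) and WT 8 (2.14). No gap marks the upper border: the library just outside the high set was KO 3, at 3.13, against 3.22 for WT 1. At the lower border KO 10 stood at 2.92 against 2.66 for WT 7, a step wider than those beside it. Steps of about that size also occur within both sets. The score averaged 3.894 ± 0.478 (SD, n = 6) in the high set, 3.006 ± 0.072 (SD, n = 6) between the sets and 2.501 ± 0.195 (SD, n = 6) in the low set. The high set counts 5 KO and 1 WT, the low set 2 KO and 4 WT, and for this reason genotype was a term in each fit unless stated. KO 5 and KO 7 are thus the only KO libraries of the low set and WT 1 the only WT library of the high set. Values without them are given for many of the results that they move, but not for all.

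The 3 ranking genes are described without a test. Fabp4 (chr3:10204342-10208616, GRCm38.p6) had log2 values of 5.15 to 6.33, median 5.41, in the high set and 3.98 to 4.80, median 4.35, in the low set, from 46 to 300 reads per library. Car3 (chr3:14863538-14872381) had 2.61 to 4.06, median 3.21, against 0.72 to 1.99, median 1.67, from 4 to 54 reads. Adipoq (chr16:23146536-23157968) had 1.89 to 3.61, median 2.98, against 1.18 to 2.09, median 1.57, from 7 to 44 reads. Fabp4 and Car3 did not overlap between the sets, whereas WT 1 lay below WT 7 for Adipoq. Car3 and Adipoq rest on few reads, which limits the precision of the score.

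**Figure D1:**
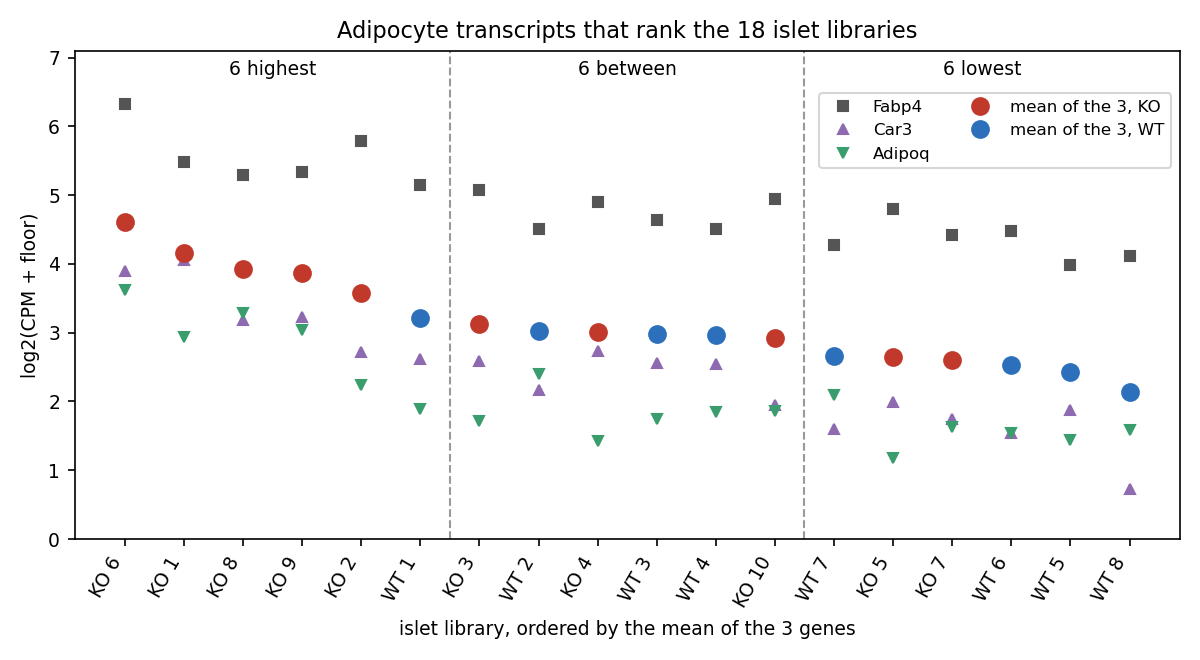
Adipocyte score (large points, red KO, blue WT) and log2 values of Fabp4, Car3 and Adipoq (small symbols) in 18 islet libraries in order of the score; dashed lines mark the borders of the 6 highest and 6 lowest. The score falls from 4.61 in KO 6 to 2.14 in WT 8, with no gap at the upper border and a step from 2.92 to 2.66 at the lower one.

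The 250 bases before the start are shown for Adipoq, the ranking gene with a RefSeq promoter entry, and for Cd36, a PPARG target among the fat genes measured here. Both are RefSeq sequences of GRCm38.p6, written 5' to 3' on the gene's strand, for Adipoq chr16:23146286-23146535 on the plus strand and for Cd36 chr5:17835897-17836146 on the minus strand. The Cd36 window lies inside the annotated span of the gene, before 1 of its starts. Capitals mark matches, on either strand, to CCAAT, the core of the CCAAT box, and to AGGTCA, the core that nuclear receptors such as PPARG bind. No match overlaps another.
Adipoq: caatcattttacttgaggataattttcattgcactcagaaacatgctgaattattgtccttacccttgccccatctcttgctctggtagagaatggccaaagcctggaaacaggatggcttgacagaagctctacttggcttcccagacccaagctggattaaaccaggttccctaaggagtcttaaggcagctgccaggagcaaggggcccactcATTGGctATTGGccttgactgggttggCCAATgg
Cd36: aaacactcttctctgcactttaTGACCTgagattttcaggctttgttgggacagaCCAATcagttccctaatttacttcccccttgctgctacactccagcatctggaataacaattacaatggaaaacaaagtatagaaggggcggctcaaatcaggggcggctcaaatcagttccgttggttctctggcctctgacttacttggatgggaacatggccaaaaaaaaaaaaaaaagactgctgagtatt
Adipoq held 3 matches to CCAAT, all near its start, and 0 to AGGTCA, and Cd36 held 1 of each. CCAAT occurs in 33.8% and AGGTCA in 14.0% of the 32851 windows of this length in the table, so these matches describe the windows only. Fabp4, Car3, Scd1 and Lox had no entry.

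Over the 10509 genes listed, depth was 2846386 to 3793718 reads per library in the high set and 2831137 to 4146746 in the low set. Genes with no read numbered 58 to 320 in the high set and 33 to 346 in the low set. The 3 libraries with the most such genes were WT 7 (346), KO 2 (320) and KO 3 (227), 1 in each set and 1 between them. Ins2 took 37.7% to 48.3% of reads in the high set and 37.2% to 45.9% in the low set. KO 8, KO 6, KO 7 and WT 5 share a run of consecutive animal numbers in their titles, with 2 in each set.

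With the 3 ranking genes left out, 0 of 10506 genes (0%) passed an adjusted p under 0.05 between the sets (limma, genotype as a term, Benjamini-Hochberg adjustment over all genes). At an unadjusted p under 0.05, limma marked 247 genes (2.35%), 129 of them higher in the high set (1.23%) and 118 lower (1.12%). The share of 2.35% is below the 0.05 of genes that such a threshold marks on average when no gene differs. An exact rank-sum test marked 476 genes unadjusted and called 0. With 6 libraries in each set its smallest possible p is too large to pass the adjustment unless very many genes reach it. Its 0 calls were thus nearly fixed in advance. With limma voom, run on whole reads recovered from the values, 0 were called and 289 marked. Values of the sets did not overlap for 21 genes that were higher (0.2%) and 7 that were lower (0.0666%). Of all genes, 49.4% had an estimate above 0, and the median difference was -0.004.

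Taken as a number over all 18 libraries, with genotype as a term, the adipocyte score was followed by 1 gene of 10506 (0.00952%), Scd1. At an unadjusted p under 0.05 the same fit marked 228 genes (2.17%), 115 with a positive slope (1.09%) and 113 with a negative one (1.08%). The share of 2.17% is likewise below 0.05 of genes. This fit uses the libraries between the sets, which the comparison of 12 does not.

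Scd1 (chr19:44394450-44407709) encodes stearoyl-CoA desaturase, which makes monounsaturated fatty acids and is abundant in white fat. Its log2 values were 4.41 to 6.02, median 5.11, in the high set, 3.72 to 4.84, median 4.11, between the sets, and 3.21 to 4.48, median 3.76, in the low set. The highest value was in KO 6 and the lowest in WT 8, the libraries at the ends of the ranking, and 5 of 6 high libraries lay above the highest low one. Between the sets the difference was 1.15 on the log2 scale (SE 0.31, 95% confidence interval 0.51 to 1.80), with an unadjusted p of 0.00137 and an adjusted p of 0.9999 (limma). Over 18 libraries the Scd1 slope was 1.03 log2 units per unit of the score (SE 0.17, 95% confidence interval 0.67 to 1.38), with an adjusted p of 0.0244 (limma). Between 32 and 242 reads lay behind each Scd1 value.

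The Scd1 slope was 1.04 in the 10 KO libraries and 0.97 in the 8 WT libraries, each fitted alone. In the joint fit the slope in KO minus that in WT was 0.06 (95% confidence interval -0.88 to 1.00). Across all 18 libraries Scd1 and the score had a Pearson r of 0.91 (permutation p 1e-05, the smallest that 100000 permutations give) and a Spearman rho of 0.87 (permutation p 4e-05), adjusted over 3 relations to 3e-05 and 0.00012. Scd1 was picked for this relation from the fit over the same libraries. These p-values, and those within KO and within WT that follow, thus add no separate support. Within KO, r was 0.94 and rho 0.92 (n = 10, permutation p 6e-05 and 0.00046, adjusted 9e-05 and 0.00069). Within WT, r was 0.67 and rho 0.67 (n = 8, exact permutation p 0.0732 and 0.0831, adjusted to the same values). Without the 2 libraries farthest from the median score, r was 0.87 over all and 0.93 in KO (both without KO 6 and KO 1) but 0.35 in WT (without WT 8 and WT 1), so in WT the relation rests on those 2 libraries.

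The call of Scd1 sat close to the threshold. Leaving out single libraries kept the slope between 0.98 and 1.09. The adjusted p of Scd1 (limma) then passed 0.05 without KO 5 (0.183), KO 6 (0.866), KO 7 (0.0611), KO 8 (0.0824), KO 9 (0.0560), KO 10 (0.0726), WT 1 (0.0516) or WT 8 (0.0878), and stayed under it without each of the other 10. Ranked on Fabp4 alone the Scd1 slope was 1.02 with an adjusted p of 0.999, and on Car3 alone 0.67 with 0.998. Over 12 libraries whose run of animal numbers includes KO and WT mice, and with that run in the fit, the Scd1 slope was 0.99 and its adjusted p 0.663.

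**Figure D2:**
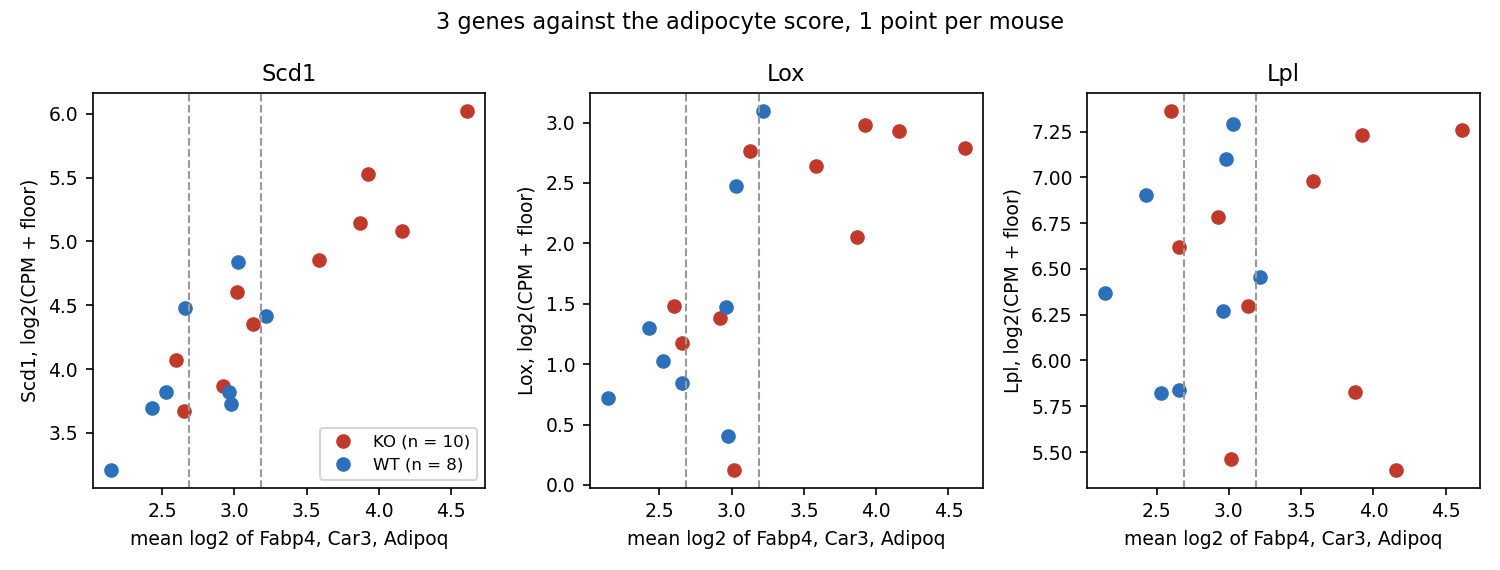
Log2 values of Scd1, Lox and Lpl (vertical) against the adipocyte score, the mean log2 of Fabp4, Car3 and Adipoq (horizontal), with 1 point per mouse (red KO, blue WT); dashed lines mark the borders of the sets. Scd1 rises with the score, from 3.21 in WT 8 to 6.02 in KO 6, Lox separates the sets but overlaps both in the libraries between them, and Lpl ranges from 5.40 to 7.26 in the high set and 5.82 to 7.36 in the low set.

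None of the other genes with the smallest p-values passed the adjustment, and their values are given as measured. Lox, the lysyl oxidase that cross-links collagen and elastin, had log2 values of 2.05 to 3.09, median 2.86, in the high set and 0.72 to 1.48, median 1.10, in the low set, from 2 to 33 reads. All 6 high libraries lay above all 6 low ones, and the difference was 1.62 (SE 0.43, unadjusted p 0.00134). Between the sets Lox ran from 0.12 to 2.77, over nearly the span of both. Col5a2, a chain of fibrillar collagen V, differed by 1.81 (SE 0.53), with values of 0.92 to 3.39 against 0.07 to 1.78. Rwdd3, which promotes sumoylation, differed by 1.82 (SE 0.53) and Ttc39c by 1.74 (SE 0.51), each with overlapping sets and 0 reads in at least 1 low library.

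On the lower side, Bckdhb, a subunit of the branched-chain keto acid dehydrogenase of mitochondria, had log2 values of 3.38 to 4.53, median 3.88, in the high set and 4.56 to 5.08, median 4.83, in the low set. The sets did not overlap, and the difference was -0.99 (SE 0.28, unadjusted p 0.00209). The gene 3110040N11Rik, with 1 to 42 reads per library, had the smallest unadjusted p of all, 0.000626 (limma). Its difference was -2.05 (SE 0.50), with values of -0.32 to 2.80 against 2.37 to 3.59. Without WT 1, the only WT library of the high set, that difference was -1.43. Slc29a4, a monoamine transporter, differed by -0.87 (SE 0.27), and Rfc2, a subunit of the clamp loader of DNA replication, by -0.82 (SE 0.25). Both overlapped between the sets.

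Beyond the ranking genes, 7 of 22 genes on the list for fat cells and their lipid droplets were measured. The other 15, among them Plin1, Cidec, Lep, Cfd and Retn, were not among the 10509 genes listed. The label thus rests on the 3 ranking genes and on 7 genes that islet, endothelial or myeloid cells may also express. Of the 7, 6 had an estimate above 0 and the median difference was 0.48 (all genes tested: 49.4% and -0.004). None passed the adjusted test, and 3 had an unadjusted p under 0.05 on the higher side, against 1.23% of all genes. Without KO 5 the median of the 7 was 0.73. The list mean was 3.27 to 3.95 in the high set and 2.95 to 3.28 in the low set, overlapping in 1 library of each. Its summed level was 104 to 215 CPM (a scaled unit, described with the processing) against 111 to 200. On a list for brown fat cells 2 of 7 genes were measured, both with an estimate below 0, Ppargc1a (-1.12) and Cox7a1 (-0.01). On a list for skeletal muscle 2 of 7 were measured, both above 0, Acta1 (0.12) and Mylpf (0.53). Ppargc1a had 0 reads in KO 1, Mylpf in KO 6 and Acta1 in KO 8.

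Among the transcription factors, Cebpa had log2 values of 1.05 to 3.64, median 2.03, in the high set and 0.05 to 2.45, median 0.64, in the low set, a difference of 1.50 (SE 0.61, unadjusted p 0.0229). Cebpa was highest in KO 9, which also had the highest mean of the macrophage and myeloid list, and with that list mean as a further term the Cebpa difference was 0.99. Pparg ran from 1.11 to 2.72 against -0.83 to 2.05, a difference of 0.48 (SE 0.62), and had 0 reads in WT 7. The Pparg difference was 0.15 without KO 7, 0.27 without WT 7 and 0.73 without KO 5.

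Cd36, which carries fatty acids into fat cells, endothelium and macrophages, had log2 values of 2.57 to 3.82, median 3.25, against 1.14 to 3.18, median 2.20. Here 4 of 6 high libraries lay above the highest low one, and the difference was 0.96 (SE 0.43, unadjusted p 0.0357). The Cd36 difference was 0.69 without KO 7 and 1.37 without KO 5, and without WT 1 its unadjusted p was 0.178 (limma). Acvr1c, the receptor ALK7 of fat and beta cells, differed by 0.93 (SE 0.44, unadjusted p 0.0482), with overlapping sets, and by 0.55 without the genotype term. Without WT 1 the unadjusted p of Acvr1c was 0.190 (limma).

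The enzymes of lipid handling had the estimates nearest to 0 among the 7. Hormone-sensitive lipase, Lipe, had 3.01 to 3.74 against 2.59 to 3.48, a difference of 0.33 (95% confidence interval -0.34 to 1.00). Glycerol-3-phosphate dehydrogenase, Gpd1, had 4.33 to 5.01 against 3.83 to 5.71, a difference of 0.23 (95% confidence interval -0.42 to 0.88). Lipoprotein lipase, Lpl, rested on 124 to 596 reads and had 5.40 to 7.26 against 5.82 to 7.36, a difference of -0.21 (95% confidence interval -0.94 to 0.53), and its sign depended on the setting. Single libraries moved these values: without KO 5 Lipe was 0.08 and Gpd1 0.38, without KO 7 Gpd1 was -0.07 and Lpl 0.07, without WT 1 Gpd1 was 0.42 and Lpl -0.45, without WT 8 Gpd1 was 0.13, and Lpl was -0.02 without KO 1 and -0.08 without KO 9. The intervals of Lipe, Gpd1 and Lpl hold 0 and also hold a difference of 0.48, the median of the list.

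The macrophage and myeloid list had 18 measured members, 16 of them with an estimate above 0 and a median difference of 0.56 (all genes tested: 49.4% and -0.004). None passed the adjusted test, and 3 had an unadjusted p under 0.05 on the higher side, against 1.23% of all genes. Without KO 7 the median was 0.33, with 14 of 18 above 0. Mpeg1, the pore protein perforin-2 of macrophages, had log2 values of 2.06 to 3.59, median 2.83, in the high set and 0.75 to 2.66, median 1.38, in the low set, with a difference of 1.14 (SE 0.48), and 0.67 without KO 7 (unadjusted p 0.214). Tyrobp, an adaptor of myeloid receptors, differed by 1.17 (SE 0.55), and H2-Aa, a chain of MHC class II, by 1.15 (SE 0.52), both with overlapping sets. Without WT 1 Tyrobp differed by 0.87 (limma, unadjusted p 0.234). H2-Aa differed by 0.68 without the genotype term.

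The myeloid genes did not move as 1 block. The macrophage genes Cd68 and Csf1r had estimates of -0.29 and -0.18, Adgre1 had 0.08 and C1qa 0.23, whereas the class II genes H2-Ab1 and H2-Eb1 had 0.90 and 0.89. Adgre1, which encodes F4/80, had 0 reads in 3 high and 2 low libraries. The mean of the macrophage and myeloid list was 2.11 to 4.43 in the high set, with the ends in KO 8 and KO 9, and 2.32 to 3.34 in the low set, and its summed level was 105 to 600 CPM against 129 to 393 CPM. Over the 18 libraries 13 of 18 members had a positive slope on the score, and without KO 9 the comparison of the sets also gave 13 of 18. The part of myeloid RNA in the differences of the fat genes was not tested beyond its use as a term.

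The endothelial list was divided: 13 of 23 members had an estimate above 0 (49.4% of all genes), with a median of 0.01, which ran from -0.06 without WT 5 to 0.14 without KO 7. None passed the adjusted test, 1 had an unadjusted p under 0.05 on the higher side (1.23% of all genes), and over 18 libraries 9 of 23 had a positive slope. The gene with that unadjusted p was Cav1, the coat protein of caveolae in endothelium and fat cells, with log2 values of 1.06 to 3.17, median 2.42, against 0.49 to 1.67, median 1.34, and a difference of 1.53 (SE 0.50, unadjusted p 0.00587). Pecam1 and Cdh5, junction proteins that define endothelium, had estimates of 0.17 and 0.29, and the transcription factor Erg had -0.62 (SE 0.37). Gpihbp1, which anchors lipoprotein lipase to capillaries, had -0.35, and the surface protein gene Ly6c1 had -1.12 (SE 0.70). The summed level of the endothelial list was 452 to 772 CPM in the high set and 452 to 638 CPM in the low set, and these ranges overlap.

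In the fibroblast and mural list 11 of 17 members had an estimate above 0, with a median of 0.29, and 1 had an unadjusted p under 0.05 on the higher side (1.23% of all genes). The median was 0.15 without WT 1, 0.16 without KO 5 and 0.53 without KO 7. Col6a1, a chain of collagen VI, had log2 values of 0.61 to 2.72 against -0.32 to 1.83 and a difference of 1.22 (SE 0.60), which was 0.66 without KO 5 and 1.87 without WT 1. Mgp, the matrix Gla protein, differed by 0.87 (SE 0.44) and the pericyte gene Rgs5 by 0.69 (SE 0.31), or 0.41 without KO 5. None passed the adjusted test, and the summed level was 322 to 1171 CPM against 314 to 545 CPM. Msln, the only measured gene of 6 on the mesothelial list, had 0 reads in KO 1 and KO 9 and a difference of -2.08 (unadjusted p 0.00914), with values of -0.83 to 3.09 against 1.94 to 3.75.

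**Figure D3:**
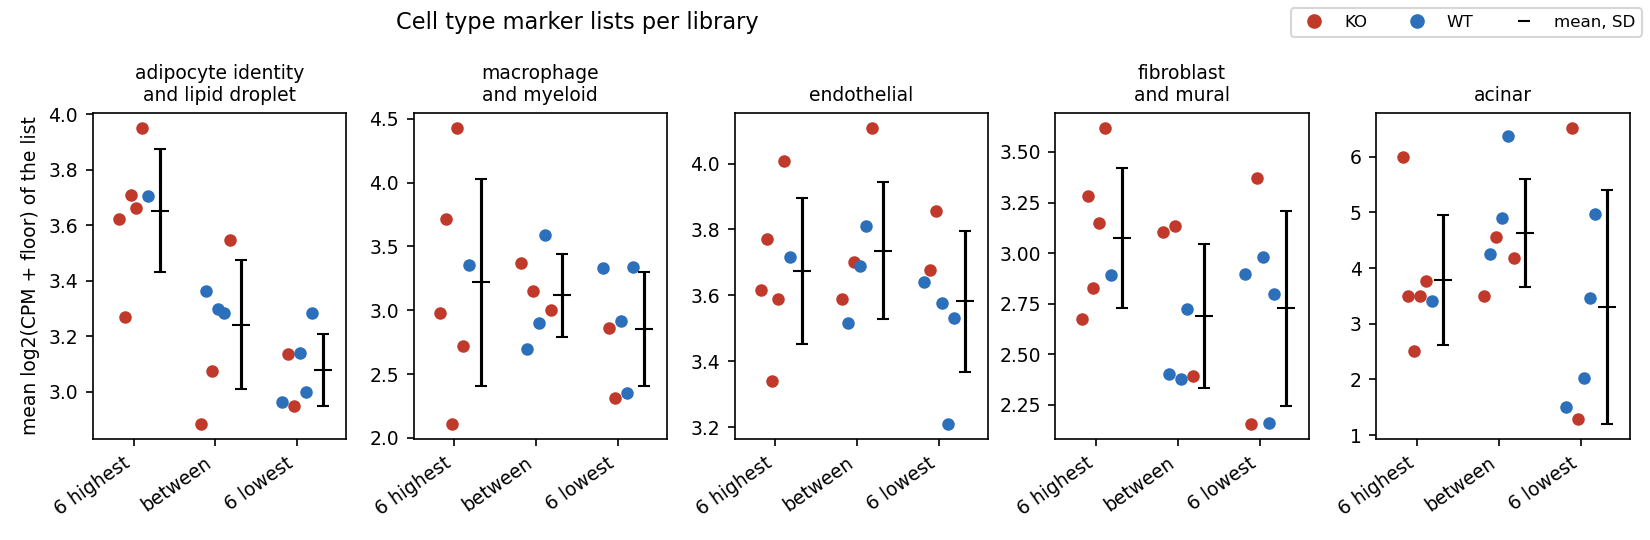
Mean log2 value of 5 marker lists (adipocyte, macrophage and myeloid, endothelial, fibroblast and mural, acinar) in each library, in the 6 highest, the 6 between and the 6 lowest by adipocyte score (red KO, blue WT; black, mean and SD). The adipocyte list averages 3.65 in the high set and 3.08 in the low set, and all 5 lists overlap between the sets, the adipocyte list by KO 1 (3.27) lying below WT 8 (3.28).

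Among the exocrine and endocrine lists, the acinar list had no stable direction between the sets. Of 17 acinar genes 12 had an estimate above 0, with a median of 0.10, but 0 of 17 did without KO 7 (median -1.13), 5 without KO 6 (-0.24), 6 without WT 7 (-0.10), 8 without WT 1 (-0.05) and 17 without KO 5 (1.48). The acinar mean was 2.52 to 6.00 in the high set, highest in KO 6, and 1.29 to 6.52 in the low set, so acinar RNA varied far more within each set than between them. Over 18 libraries 14 of 17 acinar genes had a positive slope on the score (all genes tested: 5257 of 10506), and none passed the adjusted test. The median acinar slope was 0.38, against 0.20 for the adipocyte list. Of the ductal genes 8 of 9 had an estimate below 0 (median -0.16), but 4 of 9 without KO 5 (median 0.01). Of the alpha cell genes 9 of 11 were below 0 (median -0.22), with 6 of 11 without KO 7 (median -0.10) and medians of -0.35 without KO 5 and -0.43 without WT 1. Of the delta and PP cell genes 5 of 5 were below 0 (median -0.35), with medians of -0.12 without KO 7, -0.19 without KO 9 and -0.74 without WT 1. Beta cell identity genes stood at 14 of 25 above 0 with a median of 0.04, or 9 of 25 and -0.06 without KO 7. Ttr, a transport protein abundant in alpha cells, had log2 values of 7.99 to 9.41 against 8.58 to 9.79 and a difference of -0.75 (SE 0.29, unadjusted p 0.0161). Without WT 1 the unadjusted p of Ttr was 0.064 (limma). Gcg, the glucagon gene, differed by -0.50 (SE 0.46), or -0.27 without KO 7, -0.29 without KO 9 and -0.86 without WT 1. By slope, 7 of 11 alpha cell genes were below 0 with a median of -0.01.

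In the list of fatty acid and triglyceride synthesis, which holds Scd1, 10 of 18 genes had an estimate above 0 with a median of 0.04. Fasn, the fatty acid synthase upstream of Scd1, had 6.20 to 6.60 in the high set and 6.55 to 7.08 in the low set, a difference of -0.37 (SE 0.18, 95% confidence interval -0.75 to 0.02), or -0.20 without KO 7. Mlxipl, the carbohydrate response factor ChREBP, differed by 0.40 (SE 0.27), or 0.26 without KO 2. In fatty acid oxidation and PPAR targets 12 of 22 were above 0 with a median of 0.05, which ran from -0.13 without KO 7 to 0.24 without WT 1. Hadha, of the trifunctional protein of beta oxidation, Acaa1a, a peroxisomal thiolase, and Eci1, an enoyl-CoA isomerase, differed by -0.32 (SE 0.19), -0.37 (SE 0.22) and 0.54 (SE 0.33). Without WT 1 Hadha was -0.14 and Acaa1a -0.035, without KO 5 Hadha was -0.49, and without KO 7 Eci1 was 0.30.

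In cholesterol synthesis 19 of 22 genes had an estimate below 0, with a median of -0.35. Srebf2, the transcription factor of this pathway, had log2 values of 4.79 to 5.17, median 4.99, in the high set and 5.13 to 5.89, median 5.47, in the low set. The difference was -0.54 (SE 0.21, unadjusted p 0.0182), with 5 of 6 high libraries below the lowest low one. Without WT 1 the Srebf2 difference was -0.46 (limma, unadjusted p 0.102). The enzyme Hsd17b7 differed by -0.99 (SE 0.41). None of the cholesterol synthesis genes passed the adjusted test, and the slope over 18 libraries was below 0 for 13 of 22 with a median of -0.03.

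Nuclear genes of oxidative phosphorylation had an estimate below 0 in 61 of 80 cases, with a median of -0.19. Ndufa13, a subunit of complex I, had log2 values of 5.30 to 6.66, median 6.29, against 6.34 to 7.39, median 6.85, and a difference of -0.77 (SE 0.27, unadjusted p 0.0107). Ndufv1, also of complex I, and Atp5d, of the ATP synthase, differed by -0.36 each (SE 0.18). The direction did not carry over to the other fit: for oxidative phosphorylation (nuclear), 48 of 80 slopes over 18 libraries were above 0, with a median of 0.03. The mean of this list was lowest in KO 2, at 4.61, the high library with the most genes at 0 reads. Without KO 2, WT 7 and KO 3 the median was -0.05, with 52 of 80 below 0, and leaving out 1 library gave -0.02 without KO 5 (41 of 80 below 0), -0.04 without KO 2 and -0.33 without KO 7.

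Interferon response and antigen presentation genes had an estimate below 0 in 16 of 23 cases, with a median of -0.24. Ifitm3, Rsad2 and Psmb8 differed by -0.43 (SE 0.29), -0.50 (SE 0.35) and -0.45 (SE 0.33), with overlapping sets and no adjusted call. Rsad2 was -0.17 without KO 7, -0.24 without WT 1 and -1.02 without KO 5 (unadjusted p 0.00892), and Psmb8 was -0.27 without KO 2. The median of the interferon response and antigen presentation list was -0.08 without KO 2, -0.15 without KO 7 and -0.41 without KO 5. Without the genotype term 12 of 23 genes of this list were below 0 and the median was -0.02, so its direction depended on that term.

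**Figure D4:**
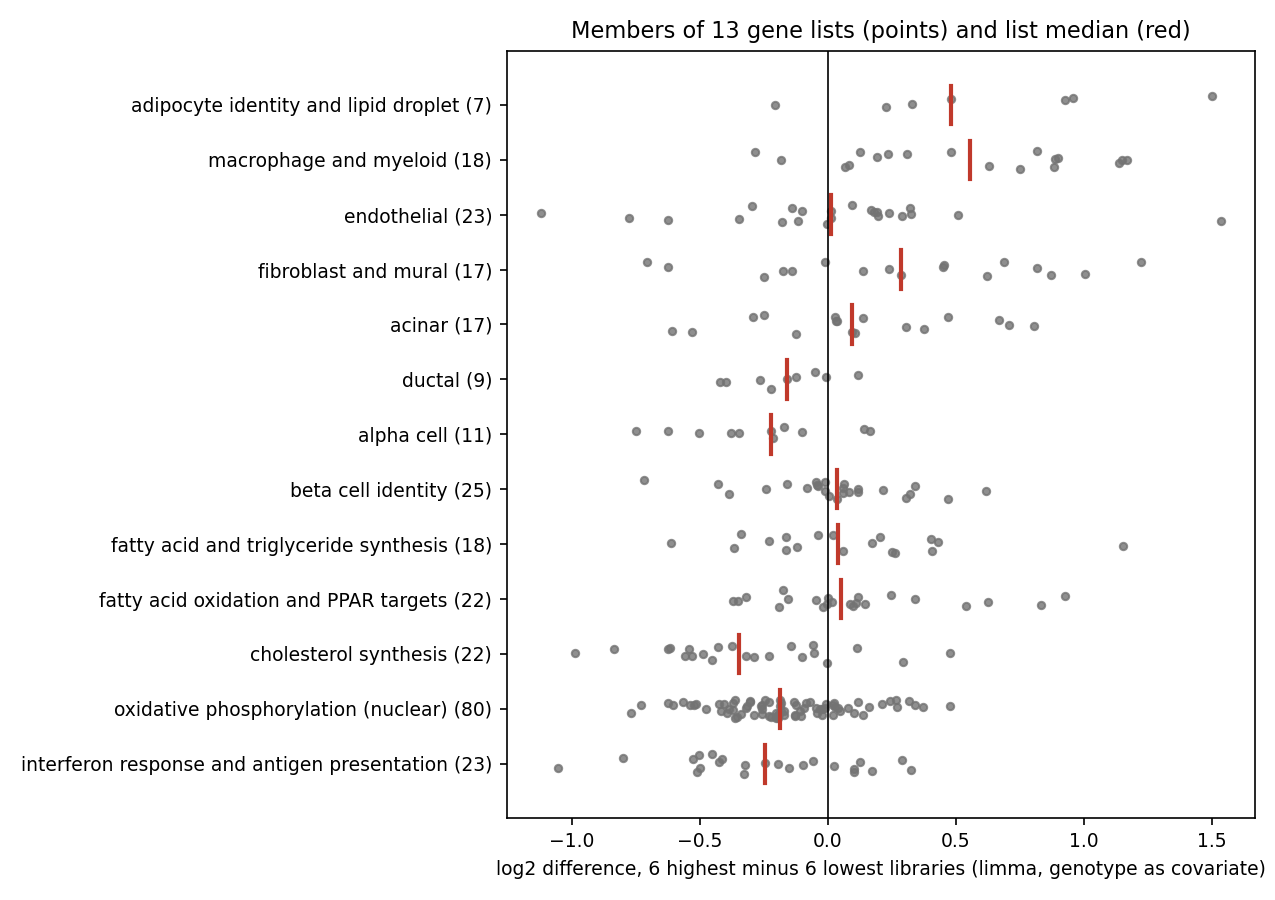
Log2 difference between the 6 highest and 6 lowest libraries (horizontal, limma with genotype as a term) for each measured gene of 13 lists (gray points; number of genes in parentheses), with each list's median as a red bar. Medians run from -0.35 for cholesterol synthesis to 0.56 for the macrophage and myeloid list, and no gene passed the adjusted test.

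Nmrk1, the gene of the deleted kinase, had log2 values of 1.05 to 2.40, median 1.97, in the high set and 0.53 to 2.52, median 1.38, in the low set, from 3 to 36 reads over the 18 libraries. The difference was 0.21 (95% confidence interval -0.87 to 1.29, unadjusted p 0.690), and it ran from 0.0012 without KO 7 to 0.57 without KO 5 when single libraries were left out, also moving by over 1.5 times without KO 1, KO 2, WT 1, WT 6 or WT 8. A fit of the slope on the score in each genotype found 0 of 10506 genes (0%) with an adjusted p under 0.05 for the difference between KO and WT (limma), and 248 (2.36%) at an unadjusted p under 0.05. Only this limma fit and its alternatives were run for that difference. The score ran from 2.14 to 3.22 in WT and from 2.60 to 4.61 in KO. The narrower range in WT limits the precision of slopes in WT.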

How the data were processed

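The labels describe islets of 18 mice, 50 ng of total RNA per library and a QuantSeq 3' FWD kit with 20 cycles of PCR. STAR 2.5.2, HTSeq 0.6.1, edgeR and GRCm38 are named in the submitters' processing notes, with no role given. The authors deposited log2 values for 10509 genes. The lowest log2 value, -0.83 in every library, equals 0.562 CPM, and above this floor 100% of the linear values were whole multiples of 1 read (tolerance 0.05 reads). They are thus log2 of scaled CPM plus the floor, and they understate differences of genes with few reads. This scaled unit is written CPM for every level here. Summed over the 10506 genes tested, it reached 1076120 in the high set and 1162680 in the low set. Unscaled CPM cannot total that much, so the worth of 1 read includes a factor that differs between libraries. The source of that factor was not tested. A difference of 1 is a doubling. 1 read was worth 0.238 to 0.411 CPM, and PCR copies are not independent molecules. Columns of samples not used numbered 0.

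Libraries are numbered within a genotype in accession order. Titles carry separate animal numbers, and the 73 pairs of the same genotype differed beyond sampling noise (chi-square per degree of freedom 6.22 to 44.3 over genes with at least 20 reads in the pair). Tests were two-sided with limma 3.58.1 in R 4.3.3 (empirical Bayes with a variance trend) on the log2 values, with Benjamini-Hochberg adjustment over 10506 genes. They were also run on simulated data, with an outcome that is not reported here. The intervals are those of limma. The 28 gene lists and the members were chosen with earlier results of these data known. Lists are described by counts and medians with no test. Named were the ranking genes, Nmrk1, the 5 smallest p-values in each direction (no gene passed), and the 3 smallest of each list in 10 lists. Of these, 3 genes are not reported here. All measured adipocyte genes, some further endothelial and myeloid genes, the brown fat and skeletal muscle genes and Msln were named after their values had been seen. Of the 10509 Entrez identifiers 10508 matched RefSeq, from which coordinates were taken, and 32 of 44 genes looked up had a promoter entry.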

Additional observations from a re-analysis of the deposited data

Results flagged for a closer look

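The highest and the lowest library were checked for a wide gap to the rest, over 128 groups of values. These were genes and list means within each set of 6, and the score within KO and within WT. Were the groups independent, which they are not, chance alone would give about 6.4 such gaps in 128. The number found was 3. Nmrk1 was lowest in KO 2 within the high set, at a log2 value of 1.05, with the nearest library at 1.91. The acinar list mean was 6.00 in KO 6, far above the other high libraries, of which the nearest stood at 3.76. Hsd17b7, an enzyme of cholesterol synthesis, had a log2 value of 1.78 in WT 7, the lowest of the low set, with the nearest at 2.71. KO 2 and WT 7 also have more genes without a read than the other 16 libraries, and the part of that in the low values was not tested. Without KO 6 the difference of Scd1 between the sets was 1.03, against 1.15 with it.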

How the results depend on the processing

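No paired analysis was possible because the labels give no replicate numbers that groups share. The count of genes between the sets was 0 under every alternative run, the filter at log2 above 3, other scalings, limma voom, the rank-sum test, an adjusted p under 0.10, further terms and each library left out included, except that the score as a number over all 18 libraries gave 1, Scd1. That count of 1 became 0 with Fabp4 alone and with Car3 alone as the score, ranged from 0 to 1 when each library was left out, and stayed at 1 without the 3 libraries with most genes at 0, with median centring, quantile normalization, no variance trend, no genotype term, limma voom, 1 added before the log and Adipoq alone. It was 0 in KO alone, in WT alone and in the fit with the animal-number run. The difference of slopes between genotypes gave 0 throughout. Across the alternatives to the comparison of the sets, unadjusted counts ranged from 123 (KO alone) to 637 (with the animal-number run). Both ends come from the score as a number and not from the sets. Median centring and quantile normalization moved the median of all genes to -0.01 and 0.004.

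Of the gene values, 29 changed sign, none of them called. In WT alone the slopes were -0.31 for Ttc39c, -0.0120 for Rgs5, 0.0379 for Gcg, 0.0923 for Fasn, 0.18 for Psmb8, -0.26 for Pparg, -0.0922 for Lipe and 0.49 for Lpl. In KO alone it was 0.21 for Rsad2. With 9 against 9 libraries the values were -0.0632 for Rgs5, 0.00283 for Fasn, -0.14 for Pparg and -0.0688 for Gpd1. Ranked by Adipoq alone they were 0.00114 for Acaa1a, 0.15 for Rsad2, 0.00504 for Hsd17b7 and 0.31 for Lpl, and by Car3 alone -0.50 for Rgs5. Without the genotype term, and so in the rank-sum test, they were 0.0161 for Ifitm3 and 0.0408 for Lpl. In the fit with the animal-number run they were 0.00925 for Ly6c1, 0.17 for Gcg and 0.12 for Lpl. Lpl was 0.0429 over all 18 libraries and 0.22 with the macrophage and myeloid score as a term. With each library left out, Gpd1 ranged from -0.0684 (without KO 7) to 0.421 (without WT 1) and Lpl from -0.45 (without WT 1) to 0.0703 (without KO 7). The cause was not tested. Depth limits the genes named from few reads: Lox, Col5a2, Cebpa and Adipoq rest on at most 50 reads in any library. So do Ttc39c, Rwdd3, 3110040N11Rik, Cd36, Pparg, Lipe, Cav1, Ly6c1, Mpeg1, Tyrobp, Adgre1, Col6a1, Msln, Hsd17b7, Nmrk1, Cox7a1, Acta1 and Mylpf.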
